A study of Mus musculus with 2 samples.

Results

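The genes described here encode the proteins of the mitochondrial ribosome. They were taken as every row of the raw count table whose symbol starts with Mrpl or Mrps followed by a digit, which gave 78 of 14959 genes. By their known place in the ribosome, 51 of the 78 products belong to the large subunit and 26 to the small subunit. Mrps18a and Mrps30 carry small-subunit names but sit in the large subunit and were counted there. Mrps36 was put in neither subunit, since its product is now known as a part of the 2-oxoglutarate dehydrogenase complex. RNA was measured in single cells of mouse melanoma lines grown in culture, with 1 library per line. B16F0 is labelled the parental line (2582 cells) and B16F10 a subclone of it with high metastatic capacity (1574 cells). The labels give no treatment and no genotype that separates the lines beyond their names. B16F10 is a selected derivative of the same tumour, so each line stands for itself and neither has a replicate culture in these data.

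Mitochondria keep a small genome that codes for core subunits of the respiratory chain, and a ribosome of their own translates those messages. All of its proteins are coded in the nucleus, made in the cytosol and imported, while its RNAs are copied from mitochondrial DNA. Many of the proteins have bacterial counterparts and others are found only in mitochondria. Melanoma cells differ in how far they rely on respiration, and PGC-1alpha (gene Ppargc1a) is a known driver of mitochondrial gene expression in a subset of them.

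The libraries held 94268486 unique molecular identifiers (UMIs, each standing for 1 captured RNA molecule) for B16F0 and 56748682 for B16F10, with medians of 35503.5 and 34950.5 per cell. Since each line is a lone library, differences were described and not tested. The intervals given are exact 95% intervals of the counting error and do not cover variation between cultures. By the deposited class, cycling cells made up 54.6% of the B16F0 library and 78.1% of the B16F10 library. Mitochondrially encoded genes took 5.41% and 6.78% of UMIs. All 10 melanocytic markers were detected, at summed levels of 9871 and 9840 CPM, where CPM is a gene's share of all UMIs times 1000000. Single markers differed between the lines in both directions, with log2 ratios of B16F10 over B16F0 from -1.74 (Tyr) to 0.86 (Mitf). Of markers of other cells, 5 of 10 for fibroblasts, 4 of 10 for macrophages and 4 of 10 for endothelium were in the table, at 6.57 and 9.69, 6.53 and 3.95, and 66.8 and 65.2 CPM, the last carried by Egfl7 (66.2 and 63.0 CPM). No marker of T and NK cells, keratinocytes or erythroid cells was in the table. The libraries shared 6 barcode sequences.

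Promoter sequence was read for the 69 members that had an entry among the RefSeq promoters of GRCm38.p6, each a window of 300 bases. Stretches of 200 bases before the start, free of annotated exons, are shown for 5 named members that differed between lines or with the cell cycle. The windows of Mrpl18, Mrpl30 and Mrpl36, at the ends of these comparisons, are not shown. Annotated exons leave no free stretch of 200 bases there (longest 0, 65 and 101 bases). For Mrpl12 and Mrpl24 exons cover 24 and 38 bases before the RefSeq start, and the stretches shown end 25 and 39 bases before it. The stretches are written 5′ to 3′ on the strand of the gene, with a match to a searched motif in capitals. Mrpl12 (chr11:120484413-120484612, plus strand) carried the NRF1 motif. Mrps22 (chr9:98601680-98601879, minus strand) carried the GABPA motif, and Mrpl20 (chr4:155802678-155802877, plus strand) the MYC motif. Mrps2 (chr2:28467866-28468065) and Mrpl24 (chr3:87919306-87919505), both on the plus strand, carried no match.
Mrpl12: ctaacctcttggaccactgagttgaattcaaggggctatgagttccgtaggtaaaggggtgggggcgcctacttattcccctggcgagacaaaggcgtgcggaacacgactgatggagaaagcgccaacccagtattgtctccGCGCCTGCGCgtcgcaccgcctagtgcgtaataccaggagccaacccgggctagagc
Mrps22: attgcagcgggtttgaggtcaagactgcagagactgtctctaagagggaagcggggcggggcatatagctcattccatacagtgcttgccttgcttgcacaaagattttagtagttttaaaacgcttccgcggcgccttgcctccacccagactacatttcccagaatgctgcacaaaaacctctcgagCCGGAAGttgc
Mrpl20: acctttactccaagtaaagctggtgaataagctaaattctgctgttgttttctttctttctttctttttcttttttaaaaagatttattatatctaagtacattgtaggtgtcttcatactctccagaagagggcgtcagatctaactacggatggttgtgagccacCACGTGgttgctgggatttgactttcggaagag
Mrps2: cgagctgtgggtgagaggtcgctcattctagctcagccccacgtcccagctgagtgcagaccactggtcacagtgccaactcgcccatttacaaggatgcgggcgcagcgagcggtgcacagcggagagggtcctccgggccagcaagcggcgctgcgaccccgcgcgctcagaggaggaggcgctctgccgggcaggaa
Mrpl24: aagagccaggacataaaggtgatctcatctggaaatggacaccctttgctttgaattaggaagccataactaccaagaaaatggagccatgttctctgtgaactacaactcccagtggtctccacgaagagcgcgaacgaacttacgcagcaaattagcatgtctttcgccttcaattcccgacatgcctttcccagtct

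Motifs of 4 factors were searched on both strands as plain letters. Some of them can share bases, as the GABPA letters end in AAG and the YY1 letters begin with it, but matches of different motifs overlapped in 0 of the 69 members. For NRF1, a regulator of nuclear genes for mitochondria, the letters were GCGC, then any base, then TGCGC. They were found in 13 of 69 members (18.8%) and in 10.7% of the 10978 other genes with a window. The GABPA letters CCGGAAG were found in 26 members (37.7%) and in 18.8% of other genes. The YY1 letters AAGATGGC were found in 12 members (17.4%) and in 4.98% of other genes. The MYC letters CACGTG were found in 5 members (7.25%) and in 11.4% of other genes. In all, 45 of the 69 members held at least 1 of the motifs. Of members that could be compared, 13 with NRF1 letters had a median log2 ratio of B16F10 over B16F0 of 0.11, and 53 without -0.02. Their medians of cycling over non-cycling cells lay the other way, at 0.03 and 0.08 in B16F0 and 0.20 and 0.22 in B16F10. With GABPA letters (24 members) each median, in the same order, was lower than without: -0.0019 and 0.10, 0.01 and 0.11, 0.17 and 0.28. The same held for MYC letters (5 members): -0.18 and 0.08, -0.03 and 0.08, 0.04 and 0.22. With YY1 letters (11 members) each was higher: 0.09 and 0.06, 0.12 and 0.07, 0.34 and 0.21. These differences were not tested.

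Many members start close to another gene on the opposite strand, here called head to head. A measured protein-coding gene starting within 1000 bases on that strand was annotated for 33 of 78 members (42.3%). Of the 13052 other protein-coding genes in the table, 1995 (15.3%) had one. The starts could lie in either order, so that some pairs overlap, such as Mrpl18 and Tcp1. Mrpl46 and Mrps11 form a head-to-head pair with each other. Mrpl36 faces Ndufs6, a subunit of respiratory complex I, and Mrpl32 faces Psma2, a proteasome subunit.

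The members were moderately abundant genes of very unequal level. Together they held 1057174 UMIs in B16F0 and 640596 in B16F10, which is 1.12% and 1.13% of each library. The median member was at 102 CPM in B16F0 and 95.4 in B16F10, against medians of 8.14 and 8.93 CPM over all 14959 genes. The kit counts 1 tag per molecule at the 3′ end, so CPM was not divided by transcript length. The order of the levels was nearly the same in both lines: across the 75 members that reached 20 CPM in either line, Pearson's r of log2 CPM was 0.973, a description across genes.

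At the top were Mrps24, Mrpl12, Mrps33, Mrpl30, Mrpl51 and Mrpl42. Mrps24, the counterpart of a bacterial small-subunit protein at the mRNA entry, had 555 CPM in B16F0 cells and 591 in B16F10 cells. Mrpl12, the stalk protein that recruits translation factors, stood at 440 and 588 CPM. Mrps33, a small-subunit protein found only in mitochondria, stood at 597 and 429 CPM. The 6 highest members of each line held 25.6% of the members' summed CPM in B16F0 and 27.0% in B16F10. At the bottom were Mrpl53 (1.08 and 1.18 CPM), Mrps27 (9.78 and 9.45 CPM) and Mrps31 (17.8 and 12.7 CPM), the 3 members under 20 CPM in both lines, followed by Mrps2, Mrpl1 and Mrpl47. Mrpl53 and its neighbours in rank did not lie within each other's counting error, since its interval in B16F0 reached only 1.31 CPM.

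Although their products sit in the same particle, RNA levels spanned 35.7-fold in B16F0 among the 75 members that reached 20 CPM in either line. Large-subunit genes had a median of 104 CPM in B16F0 and 91.6 in B16F10, and small-subunit genes 95.9 and 98.2. Genes with a bacterial counterpart (46) had medians of 118 and 116 CPM, and the 29 specific to mitochondria 73.5 and 79.7. For 22 of the 78 members a stretch of at least 100 bases had at least 95% identity to another annotated transcript. The stretch ended within the last 400 bases of the member's transcript. Reads could thus be shared for these members. Among those named here these are Mrpl1, Mrpl20, Mrpl21, Mrpl22, Mrpl23, Mrpl30, Mrpl36, Mrpl42, Mrpl48, Mrpl53, Mrps18b, Mrps21, Mrps33 and Mrps36, and their values are uncertain to that extent. In the annotation 13 members also overlap another gene on the same strand and 36 on the other strand, and whether the counting used strand is not stated in the labels.

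Between the lines, the members as a group stood at nearly the same level. Their summed CPM was 11214.5 (11193.1 to 11235.9) in B16F0 and 11288.3 (11260.7 to 11316) in B16F10, a log2 ratio of 0.0095. The median member had a log2 ratio of 0.07, beside 0.12 for all 5296 genes that reached 20 CPM in either line. The sign of the members' median depends on the scaling: it was -0.026 with TMM and -0.031 with DESeq2 size factors, which lower the ratio of every gene by 0.10, while its distance of -0.046 to the median of all genes is the same by construction. With cells of at most 8% mitochondrial UMIs the members' median was 0.14 and that of all genes 0.12. The members were also less spread than genes in general, with an SD of log2 ratios of 0.27 against 0.50.

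Few single members differed by much. At 1.5-fold or more, 2 of 75 members were higher in B16F10, where 10.6% of all genes were, and 2 were lower, where 6.12% of all genes were. These backgrounds, and those given below, were not matched to the members' level. The highest ratio belonged to Mrpl30, the counterpart of a bacterial large-subunit protein (chr1:37890477-37898535, plus strand). Its level was 385 CPM in the parental line against 618 CPM in the subclone, with a log2 ratio of 0.68 (0.66 to 0.70). Mrps2, a small-subunit protein with a bacterial counterpart (chr2:28468066-28471178, plus strand), stood at 16.7 and 26.0 CPM, with a log2 ratio of 0.63 (0.53 to 0.74). It reached the minimum of 20 CPM in B16F10 only. The other members at this end were Mrpl37 (0.52), Mrpl50 (0.43), Mrpl12 (0.42) and Mrpl44 (0.41), whose product carries a ribonuclease-like fold. Mrpl12 was the most abundant of them.

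On the other side, Mrpl36, which has a bacterial counterpart in the large subunit (chr13:73328513-73332178, plus strand), was at 203 CPM in the parental line against 131 CPM in the subclone, with a log2 ratio of -0.64 (-0.67 to -0.60). Mrpl20 (chr4:155802878-155809975, plus strand) stood at 424 and 282 CPM, with a log2 ratio of -0.59 (-0.62 to -0.56). Mrps6, a small-subunit protein with a bacterial counterpart, stood at 95.4 and 64.1 CPM (log2 ratio -0.57). It was followed by Mrps30 (-0.52), Mrps33 (-0.48) and Mrpl35 (-0.37). Of the other members named for their role, Mrpl28, which codes for a protein first described as a melanoma antigen, had a log2 ratio of 0.24. Mrpl58, the ribosome-bound peptidyl-tRNA hydrolase, had 0.02, Mrps12, the counterpart of the bacterial decoding-site protein, 0.09, Mrps22 -0.03, Mrps18a 0.07 and Mrps36 -0.25.

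**Figure D1:**
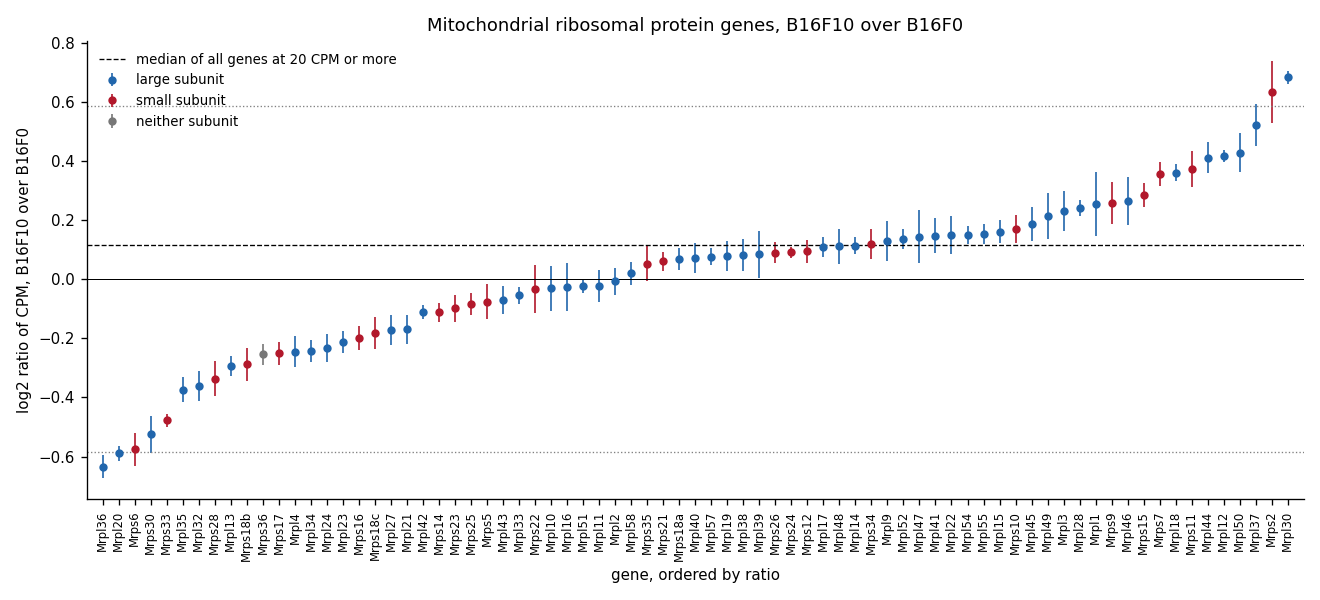
Log2 ratio of CPM, B16F10 over B16F0, for the 75 members that reached 20 CPM in either line, ordered by ratio. Points are 1 library against 1 library, bars are exact 95% counting intervals, colours give the subunit, the dashed line is the median of all genes and the dotted lines mark 1.5-fold; 2 members lie above the upper line and 2 below the lower.

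The subunits leaned apart by a little. The summed CPM of large-subunit genes was 7408 in B16F0 and 7663 in B16F10 (log2 ratio 0.05), and that of small-subunit genes 3601 and 3453 (log2 ratio -0.06). Their median ratios were 0.08 over 50 genes and 0.01 over 24, both under the 0.12 of all genes. Under TMM or DESeq2 size factors, which lower every ratio by 0.10, both sums are lower in B16F10. Cytosolic ribosomal protein genes had a median of -0.09 over 83 genes, nuclear-encoded respiratory chain subunits -0.02 over 76, and mitochondrially encoded messenger RNAs 0.39 over 12. So the RNAs that mitochondrial ribosomes translate were higher in B16F10 while the members' own sum had a log2 ratio of 0.0095.

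Other parts of the mitochondrial translation apparatus were read from lists. Of ribosome proteins with names outside the rule, 5 were measured: Gadd45gip1 (-0.48) and Aurkaip1 (-0.36) were lower in B16F10, Dap3 (0.24) and Ptcd3 (0.15) were higher, and Chchd1 had 0.00. Of 27 assembly factors, 8 reached 20 CPM, and the highest ratio belonged to Dhx30, an RNA helicase of ribosome assembly, at 0.64 (28.9 CPM in B16F0). Of 17 translation factors, 8 reached 20 CPM, with Tufm, the elongation factor that brings tRNA to the ribosome, at 0.53 and its exchange factor Tsfm at -0.39. Of 20 mitochondrial tRNA synthetases only Fars2 (-0.72) and Iars2 (0.51) reached 20 CPM. Among 16 regulators, 7 reached 20 CPM. Ppargc1a was at 4.78 CPM in the parental line against 124 CPM in the subclone, a log2 ratio of 4.70. Esrra, a nuclear receptor that works with its product, was at 19.3 and 38.6 CPM. Tefm, the mitochondrial transcription elongation factor, had -0.68.

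The members' line ratios went with those of the genes around them on the chromosome. For 71 members at least 10 other genes with 20 CPM or more lay within 5 Mb, and Pearson's r between the member's ratio and the median of those neighbours was 0.56 (Spearman's rho 0.48), a description across genes that share libraries and, in part, neighbours. The same value is not given here for other genes, so it cannot be called particular to the members. Mrpl36, the lowest member, lay among neighbours with a median of -0.49, the lowest of the 71. Mrpl30 lay among neighbours at 0.50, Mrpl50 at 0.57, Mrpl37 at 0.48 and Mrps2 at 0.30. Mrps6 and Mrps33 differed from their surroundings, which stood at 0.08 and 0.11, and so did Mrpl23, with -0.21 among neighbours at 0.50. Whether copy number differs between the lines was not tested. In the 14 entries of head-to-head partners with both genes at 20 CPM or more (Mrpl46 and Mrps11 enter from either side), r between the line ratios of member and partner was 0.62, and 9 of the 14 had the same sign in both. Mrpl36 and Ndufs6 had -0.64 and -0.66, Mrpl32 and Psma2 -0.36 and -0.44, and Mrpl46 and Mrps11 0.26 and 0.37. The signs were opposite in others, such as Mrpl49 and Fau (0.21 and -0.09) and Mrpl51 and Ncapd2 (-0.02 and 0.61).

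**Figure D2:**
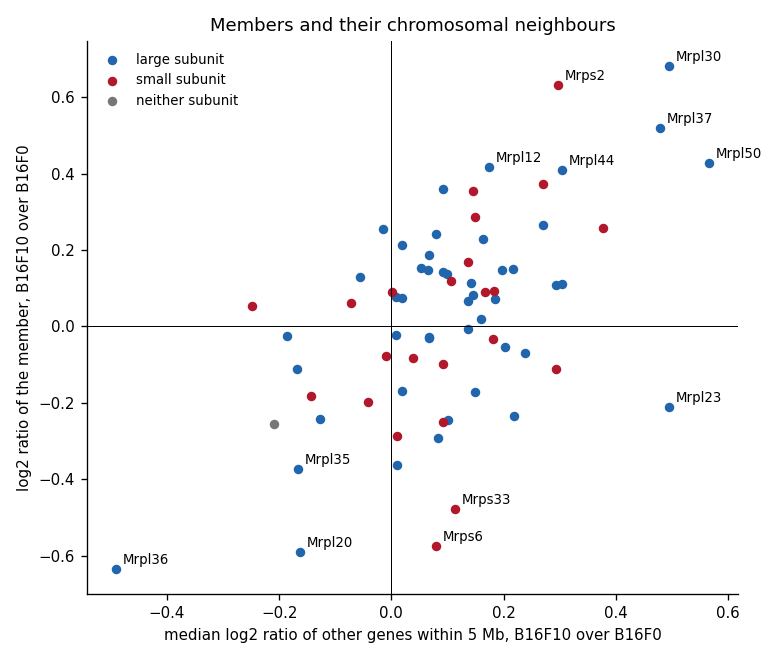
Log2 ratio of each member, B16F10 over B16F0, against the median of the same ratio over non-member genes within 5 Mb, for 71 members in colours by subunit. Mrpl36 lies at the lower left (-0.64 among neighbours at -0.49), Mrpl30 at the upper right (0.68 among 0.50), and Mrpl23 at the far right below 0 (-0.21 among 0.50).

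Because the lines differ in their share of cycling cells, the comparison was repeated within each class. Among cycling cells the members' summed CPM was 11567 in B16F0 and 11557 in B16F10, and their median log2 ratio 0.03 beside 0.09 for all genes. Among non-cycling cells the sums were 10760 and 10191, and the median ratio -0.08 beside 0.04 for all genes. In non-cycling cells 1 member was at least 1.5-fold higher (background 10.2%) and 4 were lower (background 7.32%): Mrps30 (-0.77), Mrpl36 (-0.70), Mrps6 (-0.67) and Mrpl20 (-0.62). In cycling cells 2 were higher (background 8.07%) and 2 lower (background 5.99%), among the latter Mrps6 (-0.62). Non-cycling B16F10 cells also had more mitochondrially encoded messenger RNA (76005 against 54786 CPM) and a lower depth (medians of 30188.5 and 33745 UMIs), and the part of these in the members' ratio was not tested. Across 74 members, 26 were higher in B16F10 in both classes, 29 were lower in both and 19 lay on opposite sides, which is 35.1%, 39.2% and 25.7% of them. Of all 4871 genes at that level, 47.7% were higher in both, 35.7% lower in both and 16.6% on opposite sides.

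Mrpl18, the counterpart of a bacterial protein bound to the small ribosomal RNA of the large subunit, was among those 19. Cycling cells had 280 CPM of it in B16F0 and 333 in B16F10 (log2 ratio 0.25, 0.22 to 0.28), and non-cycling cells 166 and 144 (log2 ratio -0.21, -0.29 to -0.13). Its ratio of 0.36 over all cells therefore depended on the mix of classes. Mrpl47 (0.18 and -0.34) and Mrpl19 (0.17 and -0.23) behaved alike, and Mrps22 (0.01 and -0.54) and Mrpl16 (0.03 and -0.50) were lower in B16F10 among non-cycling cells by more than their counting error.

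Cycling cells held somewhat more member RNA than non-cycling cells, in both lines. The summed CPM was 10760 in non-cycling and 11567 in cycling cells of B16F0 (log2 ratio 0.10, 0.099 to 0.110), and 10191 and 11557 in B16F10 (log2 ratio 0.18, 0.172 to 0.191). The median member had a ratio of 0.07 in B16F0, beside 0.06 for all genes, and of 0.22 in B16F10, beside 0.11. Cytosolic ribosomal protein genes went the other way, with medians of -0.14 and -0.22, and so did nuclear-encoded respiratory chain subunits, with -0.11 and -0.17. The 2 ribosomes of the cell thus stood on opposite sides of 0 in this comparison. Under TMM scaling the medians of the members were 0.05 and 0.20. When mitochondrially encoded and cytosolic ribosomal protein UMIs were left out of the total, they were 0.02 and 0.11, beside 0.00 and -0.01 for all genes. The cycling class comes from the same cells' expression, and the genes behind it are not stated in the labels.

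In B16F0 1 of 73 members was at least 1.5-fold higher in cycling cells (background 9.35%), and in B16F10 4 of 75 were (background 13%). None was lower by that fold in either line, with backgrounds of 1.03% and 3.43%. Of the 73 members that could be compared in both lines, 44 (60.3%) were higher in both and 9 (12.3%) lower in both, beside 51.0% and 28.3% of 4839 genes.

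Mrpl18 led in both lines. It was at 166 and 280 CPM in B16F0 (log2 ratio 0.75, 0.71 to 0.79) and at 144 and 333 CPM in B16F10 (log2 ratio 1.21, 1.13 to 1.28), the higher value being that of cycling cells. Its head-to-head partner Tcp1, a subunit of the cytosolic chaperonin, had ratios of 0.06 and 0.25. Mrpl14, which lies at the face of the large subunit that meets the small, stood at 206 and 301 CPM in B16F0 (0.55) and at 222 and 295 CPM in B16F10 (0.41). Mrpl49, a mitochondria-specific protein, stood at 26.8 and 38.8 CPM in B16F0 (0.53) and at 31.7 and 40.7 CPM in B16F10 (0.36). Mrps22 had ratios of 0.17 and 0.72, Mrpl47 0.18 and 0.70, Mrpl16 0.10 and 0.63, Mrpl12 0.34 and 0.44, and Mrpl28 0.29 and 0.41. For Mrps22, Mrpl47 and Mrpl16 the larger ratio in B16F10 came with lower levels in its non-cycling cells: Mrps22 stood at 22.7 CPM there and at 32.9 CPM in non-cycling B16F0 cells, with 37.4 and 37.1 CPM in the cycling cells.

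A small set was lower in cycling cells of both lines. Mrpl24, the counterpart of a bacterial protein at the polypeptide exit of the large subunit, stood at 132 CPM in non-cycling and 104 CPM in cycling cells of B16F0 (log2 ratio -0.34, -0.39 to -0.28) and at 133 and 90.7 CPM in B16F10 (log2 ratio -0.56, -0.64 to -0.47). Its level in non-cycling cells was thus nearly equal in the lines. Mrpl52 had ratios of -0.20 and -0.21, Mrps16 -0.09 and -0.25, Mrps14 -0.17 and -0.08, and Mrpl23 -0.09 and -0.10, each with counting intervals below 0 in both lines. Among the regulators, Nrf1 was higher in cycling cells by 1.03 and 0.80, Yy1 by 0.34 and 0.44, and Tfam, the packaging factor of mitochondrial DNA, by 0.47 and 0.44, while Ppargc1a had -0.72 and -0.86.

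**Figure D3:**
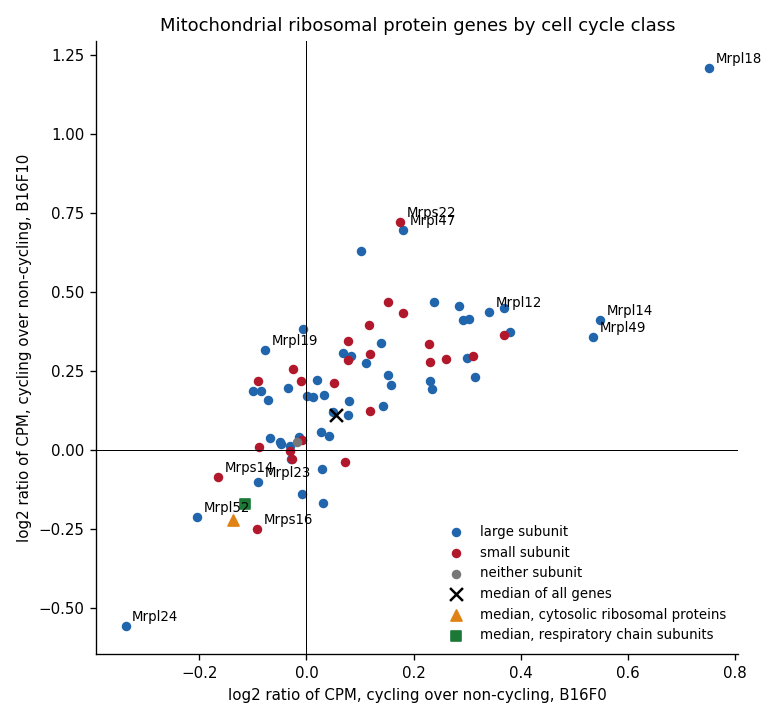
Log2 ratio of CPM, cycling over non-cycling cells, in B16F0 (x axis) and B16F10 (y axis), for members that reached 20 CPM in any of the 4 classes of cells. Mrpl18 lies at the upper right (0.75 and 1.21) and Mrpl24 at the lower left (-0.34 and -0.56); the cross is the median of all genes (0.06 and 0.11), and the triangle (-0.14 and -0.22) and square (-0.11 and -0.17) are the medians of cytosolic ribosomal protein genes and respiratory chain subunits.

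Among the deposited clusters, 7 combinations of line and cluster held at least 50 cells. The summed CPM of members was lowest in B16F10 clusters C3 (9938, 9877 to 10000) and C4 (9979, 9902 to 10057) and highest in B16F10 cluster C5 (11859, 11825 to 11893). The B16F0 clusters lay between, at 11068 in C1, 11635 in C2, 10713 in C3 and 11543 in C4. Cells of C4 were cycling in both lines (99.6% in B16F0 and 100% in B16F10), and those of C3 were mostly not (11.1% and 8.50%). The B16F10 clusters with little member RNA were also those with the most mitochondrially encoded RNA, 77661 CPM in C3 and 84304 in C4 against 62000 in C5, and with the lowest median depth, 30160 and 29693 UMIs against 37725. With mitochondrially encoded and cytosolic ribosomal protein UMIs left out of the total, C2 of B16F0 was the highest (17422 CPM), above C5 of B16F10 (17289), while C4 (15392) and C3 (16002) of B16F10 were still the lowest. On that scale the log2 ratio of C4 over C5 in B16F10 was -0.17 where it was -0.25 before, and over cells with at most 8% mitochondrial UMIs it was -0.18 (81 and 847 cells).

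C4 of B16F10 was the lowest of the 7 groups for 29 of 75 members (38.7%), and for 20.6% of the 5979 genes that reached 20 CPM in any of the groups and were lowest in only 1. C5 of B16F10 was the highest for 31 members (41.3%), and for 18.4% of the 5980 genes at that level. Between these clusters 11 of 75 members were at least 1.5-fold lower in C4 (background 12.2%) and none was higher (background 10.7%). The 2 largest differences were in Mrpl39, at 19.8 CPM in C4 and 41.2 in C5, and Mrps35, at 36.7 and 76.3 CPM. Within C4, B16F10 cells had 12 of 74 members at least 1.5-fold lower than B16F0 cells (background 15.1%) and 1 higher, Mrps2 (background 17.4%). The median member there had a log2 ratio of -0.30, beside 0.05 for all genes, and within C3 -0.21, beside -0.01. Over cells with at most 8% mitochondrial UMIs the members' medians were -0.13 in C4 and -0.12 in C3. The medians of all genes over those cells are not given here, so the members' distance to them cannot be read from these values.

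Members differed in how steady they were. The highest of the 7 groups exceeded the lowest by 1.54-fold for the median member. Mrps24 was the steadiest, between 536 and 601 CPM. Mrpl18 ranged most, by 2.72-fold: it stood at 200, 300, 163 and 274 CPM in C1 to C4 of B16F0 and at 130, 193 and 355 CPM in C3, C4 and C5 of B16F10. Its levels in the cycling C4 cells of B16F10 were thus below those of all cycling clusters of B16F0. Mrpl30 separated the lines in every cluster, from 365 to 413 CPM in B16F0 and from 604 to 622 CPM in B16F10. Mrpl36 did so in the other direction, from 190 to 210 CPM in B16F0 and from 124 to 133 CPM in B16F10. Mrps33 differed within B16F0, at 694 and 637 CPM in C1 and C2 and 518 and 496 CPM in C3 and C4.

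**Figure D4:**
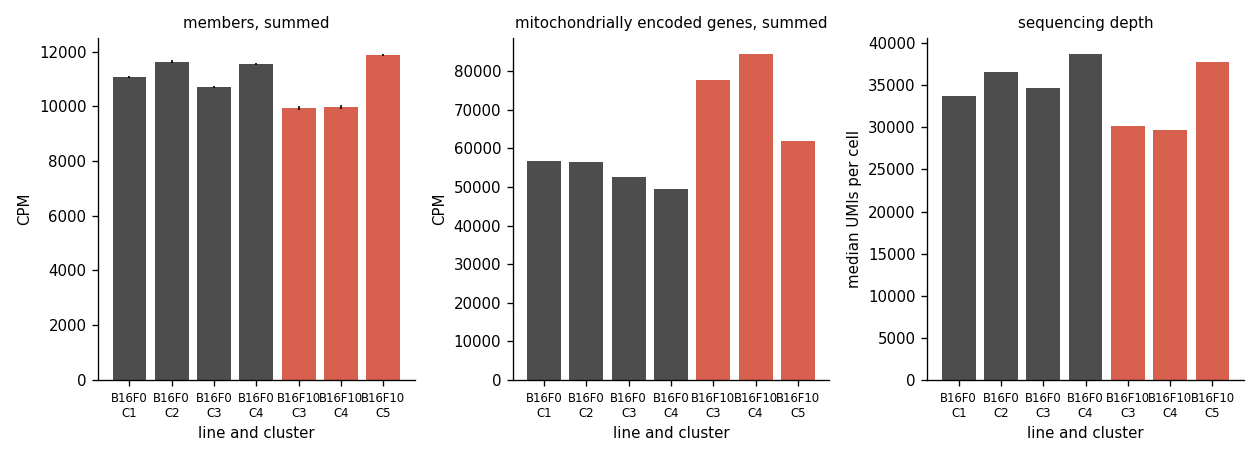
Summed CPM of the 78 members (left, with exact 95% counting intervals), summed CPM of mitochondrially encoded genes (middle) and median UMIs per cell (right) in the 7 combinations of line and cluster with at least 50 cells; grey bars are B16F0, red bars B16F10. The left bars of B16F10 C3 and C4 (9938 and 9979 CPM) are the lowest, their middle bars (77661 and 84304 CPM) the highest.

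The deposited Kdm5b class labels cells high or low for the RNA of Kdm5b, a histone demethylase known to mark slow-cycling melanoma cells. It held 111 high cells in B16F0 and 121 in B16F10. With counts scaled to depth as in the deposited log table, high cells averaged 0.83 in B16F0 and 0.92 in B16F10. Low cells averaged 0.069 and 0.093. The classes overlapped: high cells began at 0.51 in both lines, while low cells reached 0.61 in B16F0 and 0.74 in B16F10. Over all cells the members' median log2 ratio of high over low was 0.00 in B16F0 and -0.09 in B16F10, beside 0.01 and -0.02 for all genes. High cells were less deeply read (medians of 29878 and 31174 UMIs against 35863 and 35478) and less often cycling, and 1 member was past 1.5-fold: Mrpl18, with -0.61 in B16F0 (background of lower genes 3.66%) and -0.72 in B16F10 (background 4.26%). No member was higher by that fold, with backgrounds of 0.995% and 1.83%.

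Within non-cycling cells little was left between these classes, which overlap in Kdm5b level. Whether the members go with the Kdm5b level itself was not tested. High cells numbered 91 and 77, the members' medians were 0.03 and 0.00 (all genes 0.04 and 0.03), and no member passed 1.5-fold, with backgrounds of 0.62% higher and 0.372% lower in B16F0 and of 1.1% and 0.492% in B16F10. The summed CPM was 10730 in high and 10762 in low cells of B16F0, and 10069 and 10225 in B16F10. Mrpl18 had ratios of -0.26 (-0.41 to -0.11) and -0.03 (-0.21 to 0.14) there. Mrpl17, a large-subunit protein with a bacterial counterpart, was lower in high cells of both lines, with -0.32 (-0.47 to -0.18) and -0.19 (-0.36 to -0.03). Mrpl24 was higher in both, with 0.19 (0.04 to 0.33) and 0.20 (0.03 to 0.38). Mrps21 had -0.34 and -0.07, Mrpl48 -0.09 and -0.31, and Mrpl49 -0.10 and -0.18. Mrpl47, Mrpl16, Mrpl46 and Mrps9 stood at the upper end, with 0.39, 0.34, 0.12 and 0.29 in B16F10, each with an interval that included 0 in both lines.

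The members' share of each cell's RNA varied more than counting alone gives. Each cell was thinned to 19718 UMIs, which left out 259 cells of B16F0 and 72 of B16F10 with fewer. The median share was 1.12% in B16F0 and 1.14% in B16F10 (1.12% and 1.13% without thinning). The SD over cells was 0.146 percentage points in B16F0 and 0.189 in B16F10, where binomial sampling gives 0.075 in each. Cycling cells had medians of 1.16% in both lines, and non-cycling cells 1.07% in B16F0 and 1.03% in B16F10.

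Large- and small-subunit genes varied together from cell to cell. Pearson's r between their summed thinned counts was 0.50 over 2323 cells of B16F0 and 0.63 over 1502 cells of B16F10, and genes with a bacterial counterpart and those specific to mitochondria had 0.51 and 0.65. The members' sum also went with 20 other mitochondrial genes (0.42 and 0.59), of import, chaperones, the citric acid cycle, Vdac channels and prohibitins. It went against mitochondrially encoded messenger RNAs (-0.34 and -0.53) and cytosolic ribosomal protein genes (-0.46 and -0.41). All of these are shares of the same 19718 UMIs, of which cytosolic ribosomal protein genes took a median of 5582 in B16F0, so the sums are not independent. Respiratory chain subunits had 0.14 and 0.34, and the regulators 0.15 and -0.10. Spearman's rho for the regulators was 0.15 and -0.02. They include Ppargc1a, which is abundant in B16F10, and its part in these values was not tested.

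For single members the variance over cells was mostly near that of counting. The Fano factor (variance over mean, which is 1 for counting alone) had a median of 1.14 in B16F0 and 1.19 in B16F10 over 77 members. It was highest for Mrpl57 (1.72), Mrpl12 (1.68), Mrpl51 (1.66), Mrpl18 (1.65) and Mrpl20 (1.62) in B16F0. In B16F10 Mrpl12 (2.31) and Mrpl18 (2.10) led, followed by Mrpl51 (1.76), Mrpl42 and Mrpl28. These are abundant members, and the part of their level in these values was not tested.

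**Figure D5:**
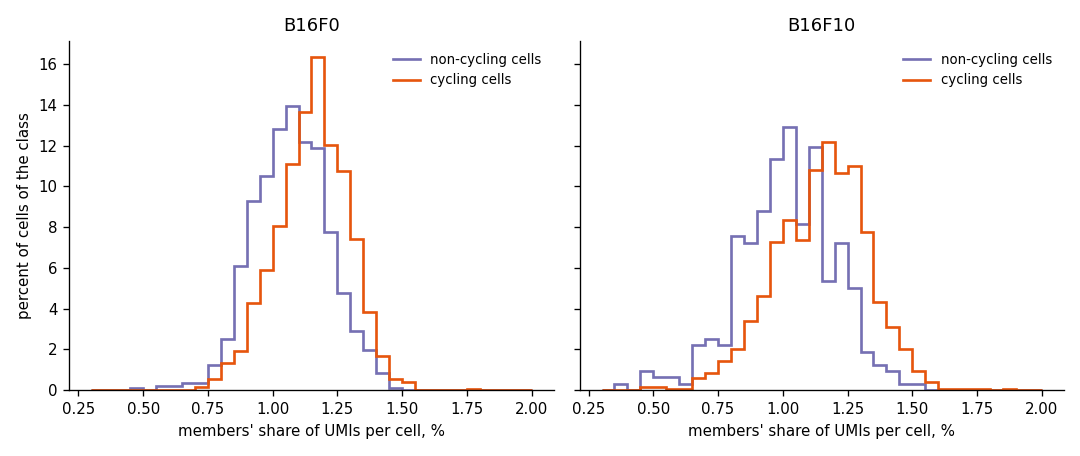
Distribution over cells of the members' summed share of UMIs after thinning to 19718 UMIs, in B16F0 (left) and B16F10 (right), as the percent of cells of each cycling class in bins of 0.05 percentage points. Cycling cells lie to the right of non-cycling cells in both lines (medians 1.16% and 1.07% in B16F0, 1.16% and 1.03% in B16F10).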

How the data were processed

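The submitters used the 10x Chromium chemistry v2 for 1 single-cell 3′ library of each line, per the labels' protocols. The submitters' processing notes list Cell Ranger 3.0.0, Seurat 3.0 and mm10 without saying what each did. Per the file headers, the authors deposited raw UMI counts of 14959 genes in 4156 cells. They also deposited a natural log table, which equals ln(1 + counts per 10000) and was used only for that check, and a table of cell classes. How cells were filtered and the classes made was not found in the labels.

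All cells were kept and no doublet caller was run. Counts were summed per line and class and divided by the summed UMIs (CPM). Ratios carry exact conditional binomial intervals, CPM exact Poisson intervals, all for counting error only. A gene was past the fold at 1.5-fold when the higher group reached 20 CPM. With 1 library per line no test was possible. The script for ratios was checked on simulated counts. Cells were thinned to 19718 UMIs, the 10th percentile of the line with the lower value. Positions follow GENCODE M21 on GRCm38, and sequences RefSeq. R 4.3.3, edgeR 4.0.16 (TMM) and DESeq2 1.42.0 (size factors) gave alternative scalings, Python 3.11.15 and scipy 1.17.1 the rest.

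Members and lists were chosen with earlier results of these data known. Named members are the 6 at each end by level and by line ratio, the 5 at each end by cycling ratio and by the Kdm5b ratio in non-cycling cells, the 5 of largest Fano factor per line, and 9 by role; of other lists, the largest ratio either way. Others named (Mrpl19, Mrpl21, Mrpl22, Mrpl32, Mrpl39, Mrps11, Mrps18b, Mrps35 and partner genes) were chosen after their values were seen. A motif or neighbour is a description only.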

Additional observations from a re-analysis of the deposited data

Results flagged for a closer look

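For 5 members the cycling ratio lay on opposite sides of 0 in the lines, with counting intervals that did not include 0 in either; the difference between lines was not tested, since each line is 1 library. These are 6.85% of the 73 members at 20 CPM or more in both comparisons, and 5.21% of all 4839 genes at that level (252) met the same rule. The log2 ratio of cycling over non-cycling cells was -0.08 in B16F0 and 0.32 in B16F10 for Mrpl19. It was -0.08 and 0.19 for Mrpl48, -0.10 and 0.19 for Mrpl22, -0.09 and 0.22 for Mrps18b, and -0.07 and 0.16 for Mrpl21. All 5 were lower in cycling B16F0 cells and higher in cycling B16F10 cells. Of them 4, all but Mrpl19, share with another annotated transcript a stretch that ends within their last 400 bases.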

How the results depend on the processing

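The line comparison of these genes is a difference close to 0, so that its sign follows the setting. The members' median log2 ratio (0.071 as reported) was -0.026 with TMM, -0.031 with DESeq2 size factors, 0.14 with cells of at most 8% mitochondrial UMIs, -0.081 with non-cycling cells only and -0.0074 with a minimum of 100 CPM. The log2 ratio of summed CPM (0.0095) was -0.087, -0.093, 0.060 and -0.078 under the first 4 of these, -0.0079 when mitochondrial and ribosomal protein genes were left out of the total and -0.0013 with cycling cells only. Members at least 1.5-fold higher (2) numbered 1 with TMM, 0 with DESeq2 size factors, 1 with non-cycling cells and 1 at 100 CPM. Members at least 1.5-fold lower (2) numbered 4 with TMM, 4 with DESeq2 size factors, 1 when the 5% of cells richest in UMIs were left out, 1 with cells of at most 8% mitochondrial UMIs and 4 with non-cycling cells. The cycling median in B16F10 (0.22) was 0.11 when those genes were left out of the total. The causes were not tested. The cycling median in B16F0 (0.068) was 0.015 with the same genes left out, where that of all genes was 0.0030. This shift, and those of the Kdm5b medians and the shares per cell under the settings run, were smaller than the median half-width of the members' counting intervals (for the shares, of the interval of a single cell). Those widths belong to 1 gene or 1 cell and are wide for a median over many, so they cannot show that a median held. Of 328 values of 41 named members, 143 moved by more than their counting interval and 28 changed sign, none of them of a member past 1.5-fold. The cluster values given with other totals or with cells of at most 8% mitochondrial UMIs were chosen after seeing the data. No paired analysis was possible because each line has 1 library. Depth limits Mrpl53, Mrps27 and Mrps31.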
